A study of Homo sapiens with 15 samples.

Results

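The 54 genes described here encode the machinery that copies DNA in S phase, from the factors that load the helicase at origins to the enzymes that supply deoxynucleotides. They were chosen by name, from a list of symbols, and all 54 were found among the 60557 Ensembl genes shared by the 15 deposited count files. The cells were Caco-2, a human colorectal carcinoma line that differentiates towards enterocytes once its monolayer is confluent. Its monolayers were kept for 24 h with rinse aid, a product for dishwashers, at a dilution of 1:10000 or 1:40000, or without it (control), and each of these 3 groups had 5 libraries of polyadenylated RNA. All groups are of this 1 line and differ in the labels only by rinse aid. Nothing in the labels ties replicates to separate cultures, and the p-values therefore reflect the spread between these samples alone, which may be technical.

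Replication is prepared in G1, when the origin recognition complex, CDC6 and CDT1 load the MCM helicase core on DNA. This step is called licensing, and geminin (GMNN) blocks it once it is done. In S phase the DBF4-dependent kinase, CDC45, GINS and MCM10 turn the loaded core into a moving helicase, primase and the polymerases copy the strands, the PCNA clamp holds them in place, and FEN1 and LIG1 join the lagging-strand fragments. Many of these genes are transcribed under E2F factors as cells pass from G1 into S phase, and their transcripts are abundant in dividing crypt cells and scarce in differentiated enterocytes.

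Promoter windows of 46 of the 54 genes were found in a RefSeq table for GRCh38.p14 that holds 27305 promoters, each from 250 bases before to 50 bases after a transcription start. The genes E2F8, CCNE2, RPA3, MCM5, RPA2, GINS4, POLD3 and MCM4 had no entry. Each window was searched on both strands for 4 E2F words, TTTCCCGC, TTTCGCGC, TTTGCCGC and TTTGGCGC, which can overlap one another on opposite strands. At least 1 word was present in 21 of 46 windows (45.7%) and in 908 of all 27305 (3.33%). The 160 bases just upstream of the start are printed 5′ to 3′ for 5 genes whose counts are given later, with the E2F words, or their complement on the other strand, in capitals. MCM6 (helicase core, chr2:135876444-135876603, minus strand), PCNA (clamp, chr20:5126623-5126782, minus), POLE (leading-strand polymerase, chr12:132687343-132687502, minus) and UHRF1 (reader of newly copied methylated DNA, chr19:4909341-4909500, plus) were lower after rinse aid. CDT1 (licensing factor, chr16:88803629-88803788, plus) is shown because it has the same word as PCNA and UHRF1 and was higher.
MCM6: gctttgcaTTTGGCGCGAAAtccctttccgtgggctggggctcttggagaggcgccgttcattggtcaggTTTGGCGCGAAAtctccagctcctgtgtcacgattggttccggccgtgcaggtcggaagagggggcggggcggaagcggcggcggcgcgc
PCNA: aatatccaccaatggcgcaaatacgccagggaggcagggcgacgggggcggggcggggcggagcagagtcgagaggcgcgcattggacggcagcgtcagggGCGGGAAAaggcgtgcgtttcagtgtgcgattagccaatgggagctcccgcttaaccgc
POLE: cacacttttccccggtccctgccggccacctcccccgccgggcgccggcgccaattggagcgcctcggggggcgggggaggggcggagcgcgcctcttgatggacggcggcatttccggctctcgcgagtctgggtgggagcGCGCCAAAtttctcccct
UHRF1: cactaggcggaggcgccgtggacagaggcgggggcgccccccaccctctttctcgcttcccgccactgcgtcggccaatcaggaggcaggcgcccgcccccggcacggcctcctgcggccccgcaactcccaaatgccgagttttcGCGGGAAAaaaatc
CDT1: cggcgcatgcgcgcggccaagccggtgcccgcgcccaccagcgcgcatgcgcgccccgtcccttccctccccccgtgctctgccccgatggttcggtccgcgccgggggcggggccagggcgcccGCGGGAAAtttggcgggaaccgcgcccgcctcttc

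MCM6 has 4 words in 2 pairs, each pair of different words overlapping into 1 run, and the other 4 segments have 1 word each. Among the genes lower at 1:10000 than in control, 17 of 29 windows (58.6%) held a word, beside 1 of 10 windows of the genes not called and 3 of 7 windows (42.9%) of the genes higher. The 3 higher genes with a word were CDT1, RFC3 and E2F1, and the gene not called was CDC6. The word CCAAT, bound by NF-Y and common in promoters of cell cycle genes, was present on either strand in 54.3% of the 46 windows and in 35.7% of all promoters. The word TTTGAA, part of the cell cycle homology region of many G2 genes, was present in 2 of 46 windows (4.35%) and in 15.4% of all promoters. These are matches of letters in 1 window per gene, and binding was not measured.

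**Figure D1:**
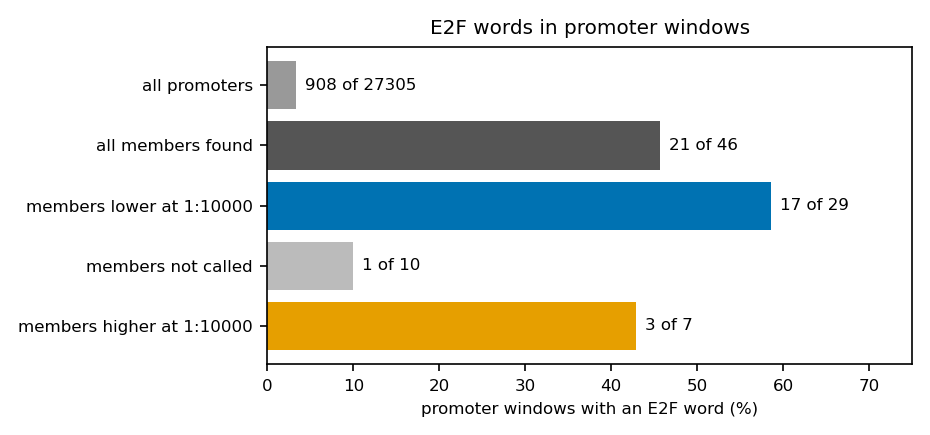
Share of promoter windows, in percent on the horizontal axis, that hold at least 1 of the 4 E2F words, for all 27305 windows, for the 46 windows of the replication genes, and for these 46 divided by the call at 1:10000 against control. The counts beside the bars show 17 of 29 windows of lower genes and 1 of 10 windows of genes not called.

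Library totals ran from 4333226 to 14230853 counts in controls, from 5489425 to 9555632 at 1:10000 and from 2551839 (replicate 2) to 172092447 (replicate 1) at 1:40000. Deviations from the group means were weakly shared across groups within replicates 1 and 2 and within replicates 3 to 5 (correlation above 0 in 31 of 39 pairs of libraries from the same set and in 5 of 36 pairs from different sets), so counts of called genes are also given for each set alone. Per the file headers, RNA STAR made the control counts and HISAT2 the rinse aid counts, with different gene annotations. Exposure and read processing cannot be told apart in either comparison with control, whereas the 2 dilutions were processed alike. Mitochondrial genes held 1.412% to 1.803% of counts in controls, 5.853% to 7.156% at 1:10000 and 1.965% to 3.302% at 1:40000; leaving them out before scaling left the counts of called replication genes at 35 lower and 7 higher at 1:10000, and their part in single values was not tested. The epithelial markers EPCAM and VIL1 were present at 439 CPM or more in every library, while KRT20 had at most 2 counts. The intestinal factor CDX2 was at 149 to 191 CPM in controls, 182 to 205 CPM at 1:40000 and 53.6 to 70.3 CPM at 1:10000, and its part in the results was not tested. The leukocyte marker PTPRC and the stromal marker THY1 had 0 counts throughout. Of 10 leukocyte markers 7 had a count in controls, and CD14, CSF1R and LYZ carried their summed level. This was 24.8 to 31.7 CPM in controls, 28.3 to 39.8 CPM at 1:40000 and 21.2 to 29.6 CPM at 1:10000. Of 10 stromal markers 6 had a count in controls, and their summed level, carried by COL1A1, PDGFRA, PDGFRB and COL3A1, was 178 to 194 CPM in controls, 139 to 163 CPM at 1:40000 and 89.3 to 109 CPM at 1:10000; its part in the results was not tested.

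The replication genes were lower as a group after rinse aid, and lower still at the stronger dilution, 1:10000. Values are in CPM, counts scaled to a common library size by the trimmed mean of M-values. Summed over the 54 genes they came to 4260 to 4920 CPM in control libraries, 3740 to 4210 CPM at 1:40000 and 3230 to 3550 CPM at 1:10000. The range at 1:10000 lay below both other ranges, and that at 1:40000 lay below the control range. The share of all counts, with no scaling between libraries, showed the same order, 0.4405% to 0.5119% in controls, 0.3779% to 0.4376% at 1:40000 and 0.2892% to 0.3247% at 1:10000. In bulk RNA, fewer cells in S phase and less of each transcript per cell cannot be told apart.

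All 54 genes passed the filter on low counts. A gene is called higher or lower here where its Benjamini-Hochberg adjusted p in edgeR's quasi-likelihood test, over all 13157 genes tested, was under 0.05. Against control at 1:10000, 35 of the 54 (64.8%) were lower and 7 (13.0%) higher, beside a background over all tested genes of 36.2% called lower and 34.8% called higher. Falls of at least 2-fold were called in 11 of the 54, beside 11.6% of all genes. Control and 1:10000 libraries did not overlap for 35 of the 54 (32 lower, 3 higher), beside 57.8% of all genes. Their median log2 fold change was -0.51, beside -0.02 over all genes.

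At 1:40000 against control, 30 of the 54 (55.6%) were lower and 4 (7.41%) higher, beside 26.0% and 26.1% of all genes. None of the 54 was lower by 2-fold, beside 3.67% of all genes, and libraries did not overlap for 21 (17 lower, 4 higher), beside 36.3%. Their median was -0.22, with -0.002 over all genes. Without the deepest and the shallowest library at 1:40000, 20 were lower and 5 higher. Replicates 1 and 2 alone gave 20 lower and 5 higher, beside 30 and 4 with replicates 3 to 5 alone. Of all genes, 21.9%, 19.8% and 25.6% were called lower in these settings, in the same order. Between the dilutions, 26 (48.1%) were lower at 1:10000 and 8 (14.8%) higher, beside 29.0% and 28.3% of all genes. UHRF1 and POLA2 were lower by at least 2-fold there (5.65% of all genes), libraries did not overlap for 23 (21 lower, 2 higher), beside 40.3%, and the median was -0.20. With replicates 1 and 2 alone 22 were lower and 7 higher, and with replicates 3 to 5 alone 30 and 7. Of all genes, 22.2% and 28.4% were called lower in these sets.

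The means ran control, 1:40000, 1:10000 from high to low in 30 of the 54 genes, and 20 genes were called lower in all 3 comparisons. Those 20 came from every role: MCM2, MCM3 and MCM6; GINS1, GINS2 and GINS4; POLA1, POLD3 and POLE; PCNA, FEN1, LIG1 and RPA3; TYMS and TK1; CHAF1A and UHRF1; E2F2 and E2F8; and CLSPN. The comparisons share libraries, so these calls are not independent of one another. The order of means and the joint calls were not counted over all tested genes, so 30 and 20 have no background beside them. Taken singly, the 3 comparisons called 36.2%, 26.0% and 29.0% of all genes lower. The calls of POLE, TYMS, TK1, CHAF1A, UHRF1 and E2F2 at 1:40000 against control, and of TYMS between the dilutions, were each lost when any of several single libraries was left out. Calls of MCM2, GINS2, POLD3, LIG1 and RPA3 were not checked in this way. RPA3 was near the threshold at 1:40000 (-0.21 ± 0.09, adjusted p = 0.0475), with libraries overlapping the controls. DBF4 alone was called higher in all 3. ORC1, ORC6, CDC7, CDC45, RFC1, RFC5 and CHAF1B were called in none. With replicates 1 and 2 alone, 26 were lower and 5 higher at 1:10000 against control, beside 30.7% of all genes lower. With replicates 3 to 5 alone 35 were lower and 6 higher, beside 34.6% of all genes lower.

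Of the 54 genes, 31 share exon sequence with another annotated gene (26 genes), have an annotated pseudogene copy (9) or changed identifier version between the control and rinse aid files (3), and their counts are uncertain to that extent because the strand setting is not given in the sources used here. The other 23 gave a similar share at 1:10000 against control, with 15 of 23 (65.2%) lower and 2 higher. Of the 31 uncertain ones 20 (64.5%) were lower and 5 higher. The median log2 fold change there was -0.39 for the 23 and -0.56 for the 31. At 1:40000 against control 47.8% of the 23 and 61.3% of the 31 were lower. Between the dilutions 43.5% and 51.6% were lower at 1:10000. These differences were not tested.

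**Figure D2:**
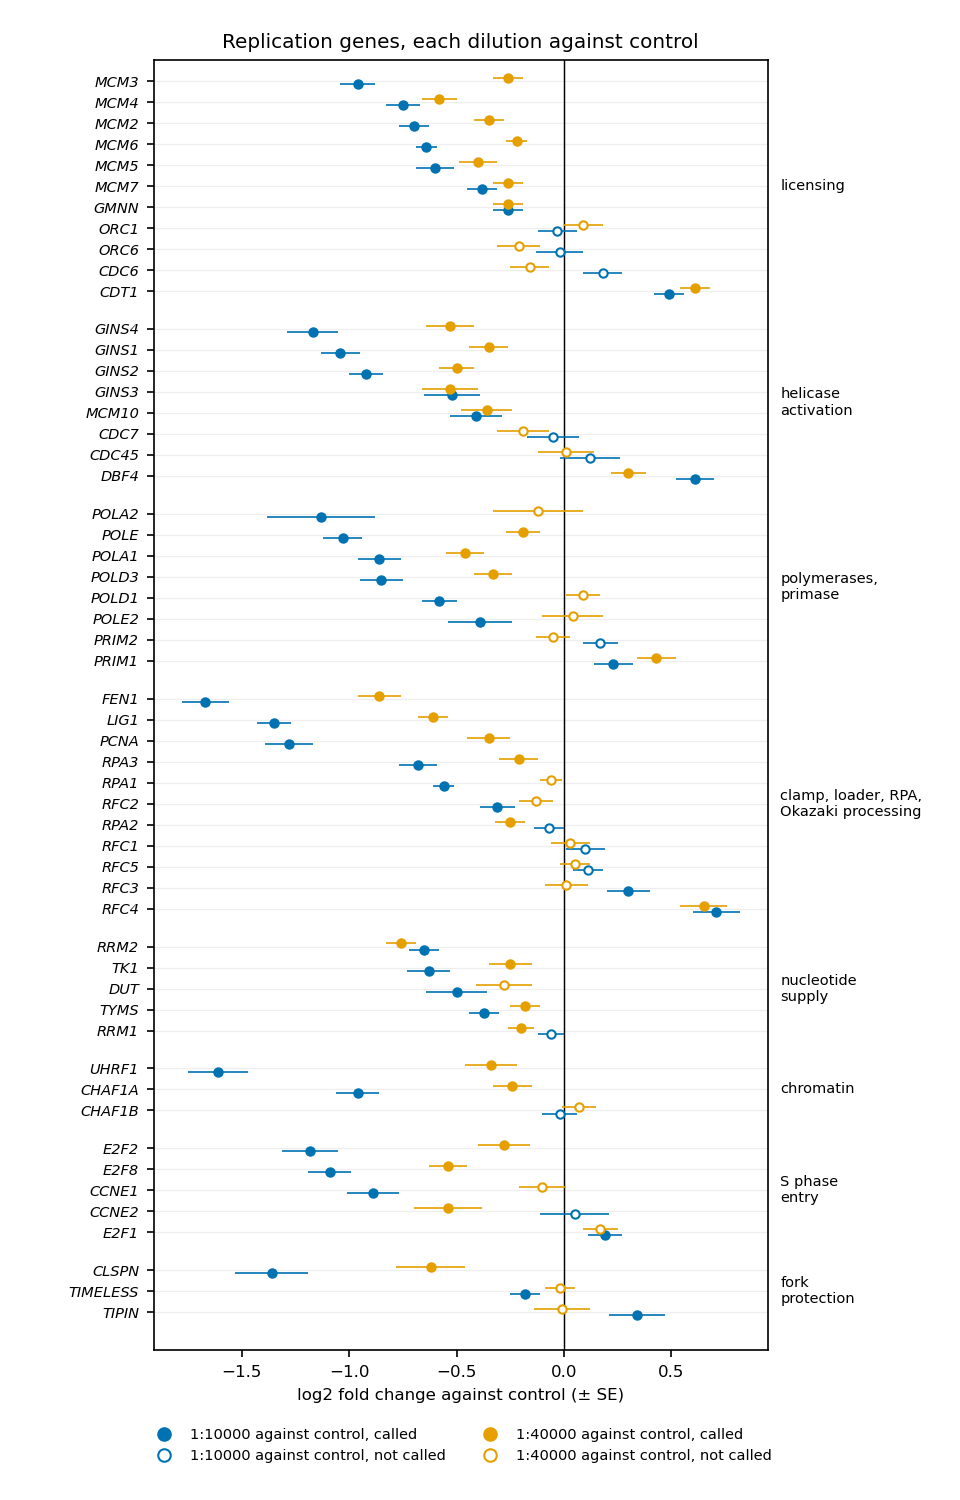
Log2 fold change against control (horizontal axis) ± SE for each of the 54 genes, grouped by role, at 1:10000 (blue) and 1:40000 (orange); filled points were called and open points were not. FEN1 lies farthest left at -1.67, RFC4 farthest right at 0.71, and most points lie left of 0 with blue farther out than orange.

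In licensing, the 6 subunits of the MCM2 to MCM7 ring fell together while the factors that load it did not. All 6 were lower than control at 1:10000 (log2 fold changes from -0.96 to -0.38) and at 1:40000 (-0.58 to -0.22). MCM3 had 224, 202, 241, 259 and 238 CPM in control replicates 1 to 5, 172, 165, 214, 210 and 206 CPM at 1:40000 and 114, 114, 123, 121 and 126 CPM at 1:10000. Every library at 1:10000 lay below every other library, while the 1:40000 and control ranges overlapped. The log2 fold change of MCM3 was -0.96 ± 0.08, adjusted p = 3.37e-11 at 1:10000 and -0.26 ± 0.07, adjusted p = 0.00483 at 1:40000, and -0.70 ± 0.08, adjusted p = 2.56e-08 between the dilutions. Without the deepest and the shallowest 1:40000 library, its adjusted p at 1:40000 was 0.0884. MCM6 had 282, 260, 278, 277 and 270 CPM in control replicates 1 to 5, 222, 225, 253, 241 and 230 CPM at 1:40000 and 186, 163, 179, 173 and 177 CPM at 1:10000. The 3 groups of MCM6 did not overlap, with log2 fold changes of -0.64 ± 0.05, adjusted p = 1.6e-10 and -0.22 ± 0.05, adjusted p = 0.00136. MCM4 was the most reduced of the ring at 1:40000 (-0.58 ± 0.08, adjusted p = 1.79e-06). Between the dilutions 3 of the 6 were lower, and MCM4 (-0.17 ± 0.08, adjusted p = 0.0825), MCM5 (-0.20 ± 0.09, adjusted p = 0.0616) and MCM7 (-0.12 ± 0.07, adjusted p = 0.148) were not called. With replicates 1 and 2 alone MCM7 was not called against control at 1:10000 (adjusted p = 0.1) or at 1:40000 (adjusted p = 0.0995). Divided by exon length, control levels within this ring, which holds 1 copy of each, ranged from 13.3 ± 1.19 CPM per kb for MCM5 to 66.4 ± 2.12 for MCM6 (SD, n = 5), with MCM3 at 63.7, MCM7 at 52.8, MCM2 at 50.4 and MCM4 at 35.8. The level of MCM6 did not differ from that of MCM3 beyond their spread. Exon length here takes all annotated exons of a gene together (7338 bases for MCM5, 4118 for MCM6), so levels per length depend on the annotation. Undivided, the control means were 97.7 CPM for MCM5 and 273 CPM for MCM6.

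The loaders behaved otherwise. CDT1 had 108, 101, 107, 97.1 and 108 CPM in control replicates 1 to 5, 181, 171, 138, 149 and 156 CPM at 1:40000 and 154, 146, 142, 141 and 147 CPM at 1:10000. All 10 rinse aid libraries exceeded all 5 controls, and the log2 fold change of CDT1 was 0.49 ± 0.07, adjusted p = 6.94e-07 at 1:10000 and 0.61 ± 0.07, adjusted p = 4.77e-08 at 1:40000, with no call between the dilutions (-0.12 ± 0.07, adjusted p = 0.12). GMNN had 67.1, 68.4, 72.3, 75.5 and 73.4 CPM in control replicates 1 to 5, 55.0, 60.0, 61.5, 61.0 and 61.1 CPM at 1:40000 and 66.1, 57.6, 57.6, 58.9 and 58.5 CPM at 1:10000. The inhibitor moved the other way: its log2 fold change was -0.26 ± 0.07, adjusted p = 0.00137 at 1:10000 and -0.26 ± 0.07, adjusted p = 0.00155 at 1:40000, and all rinse aid libraries lay below the controls. ORC1 and ORC6, subunits of the origin recognition complex, and CDC6 had log2 fold changes against control between -0.21 and 0.18, none called with all libraries and no further term. CDC6 was higher at 1:10000 than at 1:40000 (0.34 ± 0.09, adjusted p = 0.00208). Against control the call of CDC6 varied with the setting. At 1:10000 its adjusted p was 0.0819 with all libraries, 0.00629 without replicate 2 of 1:10000, which had 62.5 CPM beside 81.1 to 86.5 in the others, 0.0338 without the deepest and the shallowest 1:40000 library, and 0.241 without replicate 2 of the controls. At 1:40000 (-0.16 ± 0.09) it was 0.125 with all libraries and 0.0455 without replicate 2 of the controls.

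The licensing factor and its inhibitor can be set against each other within a library, which needs no scaling between libraries. Such a ratio does not remove an effect of read processing on single genes, so exposure and processing stay inseparable against control. Between the dilutions, processed alike, the log2 difference of this ratio was -0.12 (exact two-sided permutation p = 0.294). The ratio of CDT1 to GMNN counts was 1.61, 1.47, 1.48, 1.29 and 1.47 in control replicates 1 to 5, 3.29, 2.85, 2.24, 2.44 and 2.55 at 1:40000, and 2.32, 2.53, 2.46, 2.38 and 2.51 at 1:10000. Both rinse aid groups lay above every control and overlapped each other. The mean log2 ratio was higher than in control by 0.74 at 1:10000 and by 0.86 at 1:40000 (exact two-sided permutation p = 0.00794 for each, the smallest that 5 against 5 allows; adjusted over 18 ratio tests 0.0143, higher in 5 of 5 libraries).

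In helicase activation, all 4 GINS subunits were lower than control at both dilutions (-1.17 to -0.52 at 1:10000, -0.53 to -0.35 at 1:40000), while neither subunit of the DBF4-dependent kinase was. GINS1 had 104, 79.3, 109, 117 and 110 CPM in control replicates 1 to 5, 72.5, 83.3, 88.9, 89.7 and 75.6 CPM at 1:40000 and 47.7, 52.7, 55.1, 45.0 and 52.1 CPM at 1:10000. GINS4 had 26.4, 25.8, 27.1, 31.7 and 33.7 CPM in control replicates 1 to 5, 16.1, 19.9, 21.1, 24.9 and 19.9 CPM at 1:40000 and 12.1, 13.0, 14.5, 14.2 and 11.0 CPM at 1:10000. For both genes every 1:10000 library lay below all others. GINS4 had log2 fold changes of -1.17 ± 0.12, adjusted p = 6.01e-09 at 1:10000 and -0.53 ± 0.11, adjusted p = 0.000353 at 1:40000, and GINS1 of -1.04 ± 0.09, adjusted p = 4.66e-10 and -0.35 ± 0.09, adjusted p = 0.00232. GINS1 is also 1 of the 3 genes whose identifier version differed between control and rinse aid files. Between the dilutions, where the version did not differ, the log2 fold change of GINS1 was -0.69 ± 0.09, adjusted p = 8.92e-07. With replicates 1 and 2 alone GINS1 was not called at 1:40000 against control (adjusted p = 0.158). GINS3 was not called between the dilutions (0.01 ± 0.13, adjusted p = 0.971). DBF4 had 48.9, 48.7, 59.0, 58.0 and 60.7 CPM in control replicates 1 to 5, 68.2, 71.8, 72.6, 65.0 and 61.4 CPM at 1:40000 and 98.5, 89.9, 77.7, 78.7 and 74.7 CPM at 1:10000. DBF4, the activating subunit of the kinase, rose on the log2 scale by 0.61 ± 0.09, adjusted p = 7.08e-07 at 1:10000, 0.30 ± 0.08, adjusted p = 0.00488 at 1:40000 and 0.31 ± 0.08, adjusted p = 0.00266 between the dilutions, with no overlap between any groups. Its exons overlap SLC25A40 and it has a pseudogene, so some of its counts are uncertain. The catalytic subunit CDC7 (log2 fold changes -0.05 and -0.19 against control) and the helicase component CDC45 (0.12 and 0.01) were not called, and MCM10, which helps start the helicase, was lower (-0.41 ± 0.12, adjusted p = 0.00473 and -0.36 ± 0.12, adjusted p = 0.015).

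**Figure D3:**
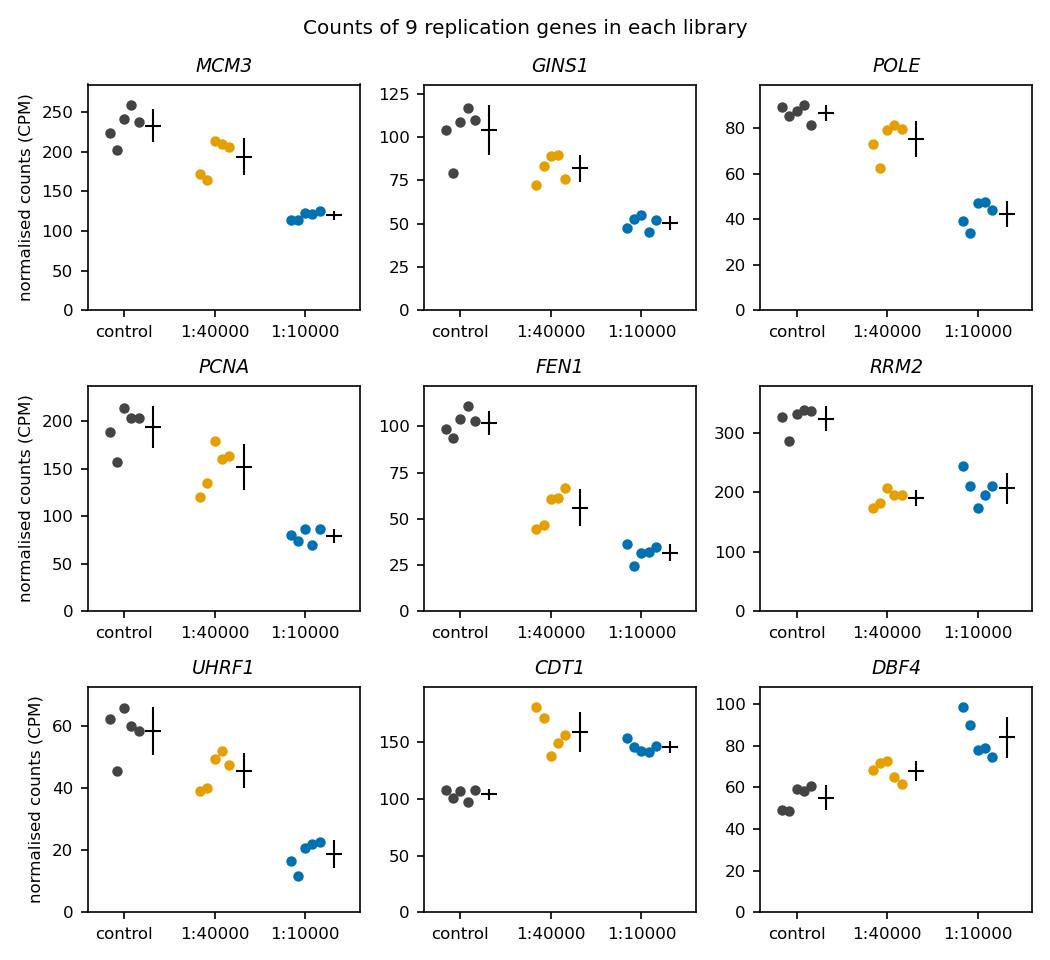
Normalised counts in CPM (vertical axes, from 0) of 9 replication genes in each library of the control, 1:40000 and 1:10000 groups; points are libraries in replicate order and the cross beside them is mean ± SD (n = 5). MCM3, GINS1, POLE, PCNA, FEN1 and UHRF1 step down from control to 1:10000, RRM2 is as low at 1:40000 as at 1:10000, and CDT1 and DBF4 are above control.

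Among polymerases, the 6 subunits of DNA polymerases alpha, delta and epsilon were lower at 1:10000 both than control (-1.13 to -0.39) and than 1:40000 (-1.01 to -0.40), and 3 of the 6 were lower at 1:40000 than in control. POLE had 89.1, 85.4, 87.2, 90.0 and 81.4 CPM in control replicates 1 to 5, 73.0, 62.3, 79.1, 81.3 and 79.6 CPM at 1:40000 and 39.1, 33.8, 46.9, 47.7 and 44.1 CPM at 1:10000. All 1:10000 libraries of POLE, the catalytic subunit that copies the leading strand, lay below all libraries of the other groups, and those at 1:40000 below all controls. Its log2 fold change was -1.03 ± 0.09, adjusted p = 8.56e-11 at 1:10000 and -0.84 ± 0.08, adjusted p = 9.27e-09 between the dilutions; the call at 1:40000 (-0.19 ± 0.08, adjusted p = 0.0493) was lost without any 1 of 9 libraries, with adjusted p up to 0.131. POLD1 had 53.7, 54.8, 50.8, 55.2 and 57.5 CPM in control replicates 1 to 5, 64.3, 53.9, 54.9, 53.4 and 61.9 CPM at 1:40000 and 38.8, 40.9, 35.9, 33.1 and 33.7 CPM at 1:10000. POLD1, the catalytic subunit of the lagging-strand polymerase, was lower at 1:10000, with log2 fold changes of -0.58 ± 0.08, adjusted p = 4.22e-07 against control and -0.67 ± 0.08, adjusted p = 7.77e-08 against 1:40000; at 1:40000 its log2 fold change against control was 0.09 ± 0.08, adjusted p = 0.32. Its identifier version also differed between control and rinse aid files. POLA1, which extends primers, had log2 fold changes of -0.86 ± 0.10, adjusted p = 1.82e-08 and -0.46 ± 0.09, adjusted p = 0.000167. POLA2 had the largest fall of these 6, -1.13 ± 0.25, adjusted p = 0.000329, from the fewest counts of the 54 genes (3 to 17 at 1:10000, 15 to 66 in controls).

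The primase subunits, which lay down the RNA primers with POLA1 and POLA2, did not fall. PRIM1 had 28.6, 23.2, 27.5, 25.6 and 27.3 CPM in control replicates 1 to 5, 34.8, 40.1, 37.9, 31.2 and 34.3 CPM at 1:40000 and 30.0, 27.9, 35.3, 28.7 and 31.4 CPM at 1:10000. PRIM1 was above every control at 1:40000 (0.43 ± 0.09, adjusted p = 0.000246); at 1:10000 the groups overlapped and the call (0.23 ± 0.09, adjusted p = 0.0293) was lost without any 1 of 4 libraries. PRIM1 shares exon sequence with HSD17B6 and NACA. PRIM2 was not called against control (0.17 ± 0.08, adjusted p = 0.0628 and -0.05 ± 0.08, adjusted p = 0.65) and was higher at 1:10000 than at 1:40000 (0.22 ± 0.08, adjusted p = 0.0224), a call lost without replicate 5 of 1:40000 (adjusted p = 0.0584).

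The clamp and the enzymes that finish lagging-strand fragments had some of the largest falls. FEN1 had 98.7, 93.6, 104, 111 and 103 CPM in control replicates 1 to 5, 44.6, 46.6, 61.0, 61.2 and 66.8 CPM at 1:40000 and 36.4, 24.6, 31.5, 31.9 and 34.6 CPM at 1:10000. LIG1 had 73.9, 71.4, 81.9, 76.9 and 75.5 CPM in control replicates 1 to 5, 46.0, 46.2, 52.1, 53.0 and 50.7 CPM at 1:40000 and 30.0, 25.8, 29.4, 29.4 and 33.4 CPM at 1:10000. PCNA had 189, 157, 214, 204 and 204 CPM in control replicates 1 to 5, 120, 135, 179, 160 and 164 CPM at 1:40000 and 80.5, 74.3, 86.6, 69.7 and 86.8 CPM at 1:10000. For FEN1, the flap nuclease, and LIG1, the ligase that seals the fragments, the 3 groups did not overlap. For PCNA the 1:10000 libraries lay below all others and the 1:40000 and control ranges overlapped. FEN1 had log2 fold changes of -1.67 ± 0.11, adjusted p = 3.71e-12 at 1:10000 and -0.86 ± 0.10, adjusted p = 2.72e-07 at 1:40000, and LIG1 of -1.35 ± 0.08, adjusted p = 4.86e-14 and -0.61 ± 0.07, adjusted p = 1.13e-07. The log2 fold change of PCNA was -1.28 ± 0.11, adjusted p = 1.29e-09 at 1:10000, -0.35 ± 0.10, adjusted p = 0.00728 at 1:40000 and -0.93 ± 0.11, adjusted p = 3e-07 between the dilutions; without the deepest and the shallowest 1:40000 library its adjusted p at 1:40000 was 0.0636. FEN1 overlaps FADS2 and TMEM258 and has 1 pseudogene, PCNA has 3, and LIG1 overlaps 1 unnamed transcript. In controls PCNA had the highest level per length of the 54 genes, 132 ± 15.1 CPM per kb (SD, n = 5). At 1:10000 it was at 54.1 ± 5.13 CPM per kb, beside 61.7 ± 2.91 for RRM1.

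The clamp loader, which opens the PCNA ring and sets it on DNA, did not fall with its clamp. RFC4 had 20.2, 22.5, 16.2, 22.7 and 26.2 CPM in control replicates 1 to 5, 39.1, 31.7, 31.2, 36.3 and 31.6 CPM at 1:40000 and 42.2, 39.7, 31.1, 32.5 and 33.4 CPM at 1:10000. All 10 rinse aid libraries of RFC4 exceeded the controls (0.71 ± 0.11, adjusted p = 5.1e-06 and 0.65 ± 0.11, adjusted p = 2.83e-05) and the dilutions overlapped. RFC4 shares exon sequence with EIF4A2, an abundant transcript. RFC3 was higher at 1:10000 (0.30 ± 0.10, adjusted p = 0.0122), a call that replicates 3 to 5 alone did not give (adjusted p = 0.357), RFC2 was lower there (-0.31 ± 0.08, adjusted p = 0.00119), and RFC1 and RFC5 were not called in any comparison. In the single-strand binding complex RPA, RPA1 and RPA3 were lower at 1:10000 and RPA2 was not called. RPA1 had 242, 249, 264, 262 and 262 CPM in control replicates 1 to 5, 242, 238, 256, 247 and 240 CPM at 1:40000 and 168, 178, 182, 171 and 170 CPM at 1:10000. RPA1 at 1:10000 lay below every other library (-0.56 ± 0.05, adjusted p = 5.11e-10 against control, -0.50 ± 0.05, adjusted p = 1.18e-08 against 1:40000), while at 1:40000 its log2 fold change was -0.06 ± 0.05, adjusted p = 0.308. RPA2 was lower than control at 1:40000 only (-0.25 ± 0.07, adjusted p = 0.00414).

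In nucleotide supply, 4 of 5 genes were lower than control at each dilution, and the order of the dilutions differed from gene to gene. RRM2 had 327, 287, 331, 338 and 337 CPM in control replicates 1 to 5, 173, 182, 208, 195 and 195 CPM at 1:40000 and 245, 210, 173, 196 and 210 CPM at 1:10000. RRM2, the regulated subunit of ribonucleotide reductase, was lower in all 10 rinse aid libraries than in any control (-0.65 ± 0.07, adjusted p = 3.04e-08 at 1:10000, -0.76 ± 0.07, adjusted p = 5.18e-09 at 1:40000), and the dilutions overlapped (0.12 ± 0.08, adjusted p = 0.196). The partner subunit RRM1 was at 269 ± 13.2 CPM in controls, 234 ± 15.4 CPM at 1:40000 and 258 ± 12.2 CPM at 1:10000 (SD, n = 5), with overlap between all groups. It was not called at 1:10000 (-0.06 ± 0.06, adjusted p = 0.367) and was slightly lower at 1:40000 (-0.20 ± 0.06, adjusted p = 0.0045). RRM2 has 3 pseudogenes and overlaps 1 unnamed transcript, and RRM1 overlaps an antisense gene.

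The ratio of RRM2 to RRM1 counts was 1.31, 1.08, 1.19, 1.26 and 1.19 in control replicates 1 to 5, 0.729, 0.749, 0.827, 0.901 and 0.892 at 1:40000 and 0.887, 0.804, 0.672, 0.806 and 0.834 at 1:10000. Every control had more RRM2 than RRM1 counts and every rinse aid library fewer. The mean log2 ratio was lower than in control, by differences of -0.60 at 1:10000 and -0.56 at 1:40000 (exact two-sided permutation p = 0.00794 for each, adjusted 0.0143, lower in 5 of 5 libraries), with -0.03 between the dilutions (p = 0.683 by the same exact test). TK1, thymidine kinase of the salvage route, and TYMS, thymidylate synthase, were lower at 1:10000 (-0.63 ± 0.10, adjusted p = 6.4e-06 and -0.37 ± 0.07, adjusted p = 8.6e-05). Their calls at 1:40000 were lost without any 1 of 4 libraries for TK1 (adjusted p up to 0.109) and 7 for TYMS (up to 0.154). With replicates 1 and 2 alone TYMS was not called at 1:10000 either (adjusted p = 0.388). DUT, which removes dUTP, was lower at 1:10000 (-0.50 ± 0.14, adjusted p = 0.00299) and has 8 annotated pseudogenes.

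**Figure D4:**
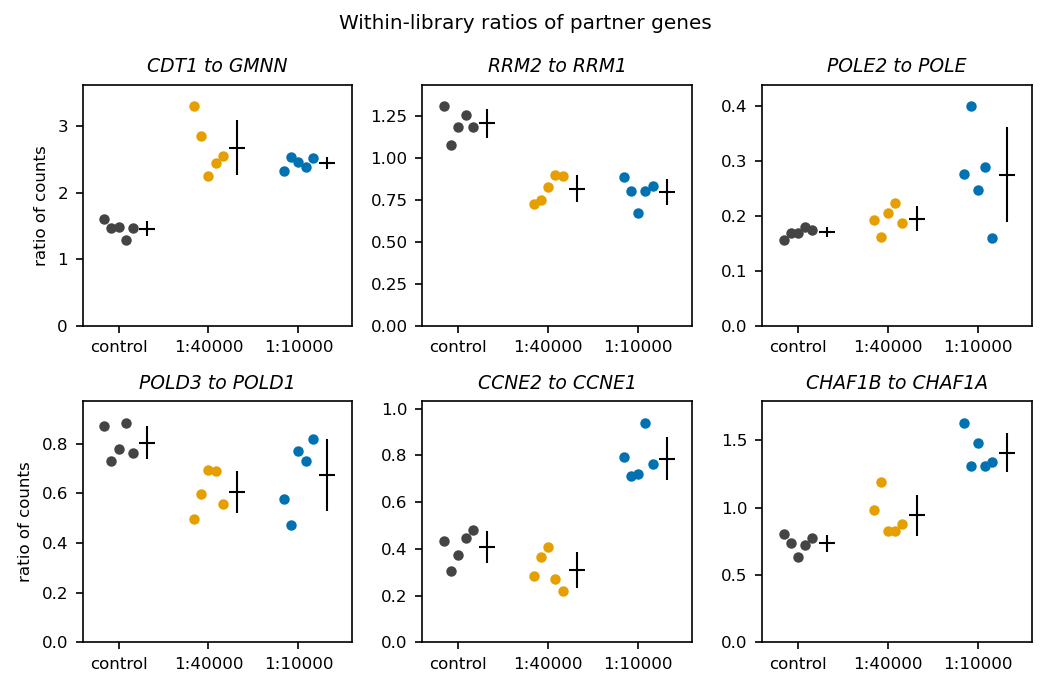
Ratio of the counts of 2 partner genes in the same library (vertical axes, from 0) for 6 pairs in the control, 1:40000 and 1:10000 groups; points are libraries in replicate order and the cross beside them is mean ± SD (n = 5). The ratio of CDT1 to GMNN is above, and that of RRM2 to RRM1 below, every control in all 10 rinse aid libraries, while CCNE2 to CCNE1 and CHAF1B to CHAF1A stand apart at 1:10000.

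At the chromatin behind the fork, UHRF1, which recruits the maintenance DNA methyltransferase to hemimethylated DNA, fell most of 3 genes. UHRF1 had 62.1, 45.3, 65.7, 59.8 and 58.3 CPM in control replicates 1 to 5, 39.0, 40.1, 49.1, 51.7 and 47.3 CPM at 1:40000 and 16.5, 11.8, 20.8, 22.0 and 22.7 CPM at 1:10000. All 1:10000 libraries lay below all others. The log2 fold change of UHRF1 at 1:10000 was -1.61 ± 0.14, adjusted p = 1.43e-09 against control and -1.27 ± 0.14, adjusted p = 1.23e-07 against 1:40000; at 1:40000 (-0.34 ± 0.12, adjusted p = 0.0258) the call was lost without any 1 of 6 libraries, with adjusted p up to 0.0786. CHAF1A, the large subunit of the histone chaperone CAF-1, was lower at 1:10000 (-0.96 ± 0.10, adjusted p = 4.29e-09). At 1:40000 (-0.24 ± 0.09, adjusted p = 0.0342) its call was lost without any 1 of 6 libraries, with adjusted p up to 0.0843. CHAF1B, its partner, was called in no comparison (-0.02 ± 0.08, adjusted p = 0.847 at 1:10000). The CHAF1B to CHAF1A ratio rose from 0.736 ± 0.0646 in controls to 0.943 ± 0.153 at 1:40000 and 1.41 ± 0.142 at 1:10000 (SD, n = 5). Each pair of groups differed by the exact two-sided permutation test (adjusted p = 0.0143, log2 differences of 0.94 at 1:10000 and 0.35 at 1:40000, in 5 of 5 libraries). CHAF1A overlaps UBXN6 and CHAF1B overlaps MORC3.

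The S phase entry genes split. E2F2 had 22.8, 21.2, 16.6, 22.8 and 26.0 CPM in control replicates 1 to 5, 16.8, 15.3, 18.9, 19.5 and 19.1 CPM at 1:40000 and 8.31, 7.53, 10.1, 10.7 and 12.0 CPM at 1:10000. E2F2, an activating E2F, and E2F8, a repressing one, were lower at 1:10000 (-1.18 ± 0.13, adjusted p = 1.29e-08 and -1.09 ± 0.10, adjusted p = 5.49e-10), with every library under the controls. E2F8 was also lower at 1:40000 (-0.54 ± 0.09, adjusted p = 3.88e-05); the call of E2F2 there was lost without any 1 of 6 libraries (adjusted p up to 0.17). E2F1 was at 58.4 ± 5.41 CPM in controls and 67.1 ± 7.65 at 1:10000 (SD, n = 5), overlapping, and its call (0.19 ± 0.08, adjusted p = 0.0428) was lost without any 1 of 6 libraries (adjusted p up to 0.135).

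The cyclins E, which activate CDK2 at the start of S phase, also differed from one another. CCNE1 had 27.4, 23.5, 29.7, 26.3 and 23.4 CPM in control replicates 1 to 5, 21.0, 20.2, 23.1, 28.0 and 28.0 CPM at 1:40000 and 15.7, 12.0, 15.3, 12.5 and 13.7 CPM at 1:10000. CCNE2 had 11.8, 7.15, 11.1, 11.8 and 11.2 CPM in control replicates 1 to 5, 6.01, 7.26, 9.38, 7.55 and 6.04 CPM at 1:40000 and 12.4, 8.55, 11.0, 11.7 and 10.4 CPM at 1:10000. CCNE1 at 1:10000 lay below all other libraries (-0.89 ± 0.12, adjusted p = 2.16e-07 against control), and CCNE2 was lower at 1:40000 than in control (-0.54 ± 0.16, adjusted p = 0.00605) and than at 1:10000, with a log2 fold change of 0.59 ± 0.16, adjusted p = 0.00274 between the dilutions. CCNE2 shares exon sequence with INTS8. The CCNE2 to CCNE1 ratio was 0.409 ± 0.0693 in controls, 0.309 ± 0.0759 at 1:40000 and 0.786 ± 0.0916 at 1:10000 (SD, n = 5), higher at 1:10000 than in control by 0.95 on the log2 scale (exact two-sided permutation p = 0.00794, adjusted 0.0143, in 5 of 5 libraries).

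In fork protection, CLSPN, the adaptor through which ATR activates CHK1, was lower. CLSPN had 31.0, 23.1, 33.1, 33.4 and 25.5 CPM in control replicates 1 to 5, 16.0, 11.8, 19.5, 24.4 and 21.0 CPM at 1:40000 and 12.5, 7.12, 14.5, 11.0 and 10.2 CPM at 1:10000. All 1:10000 libraries lay below the controls (-1.36 ± 0.17, adjusted p = 5.07e-07) and the 1:40000 libraries overlapped both (-0.62 ± 0.16, adjusted p = 0.0026 against control). TIMELESS and TIPIN, which form 1 complex at the fork, had log2 fold changes of -0.18 ± 0.07, adjusted p = 0.02 and 0.34 ± 0.13, adjusted p = 0.0283 at 1:10000. The first of these calls was lost without either of 2 libraries and the second without any 1 of 3 (adjusted p up to 0.124 and 0.0839).

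The other 2 ratios passed the threshold in fewer comparisons than each ratio above. The POLD3 to POLD1 ratio was 0.805 ± 0.0679 in controls and 0.607 ± 0.0846 at 1:40000 (SD, n = 5; log2 difference -0.41, exact two-sided permutation p = 0.00794, adjusted 0.0143, in 5 of 5 libraries). It was 0.674 ± 0.145 at 1:10000, which overlapped both. The POLE2 to POLE ratio was 0.170 ± 0.00917 in controls, 0.195 ± 0.0231 at 1:40000 and 0.275 ± 0.0860 at 1:10000 (SD, n = 5). Its log2 difference from control at 1:10000 was 0.63 and missed the threshold (exact permutation p = 0.0397, adjusted 0.0649). The SD of the log2 ratio was 0.48 at 1:10000 and 0.08 in controls.

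**Figure D5:**
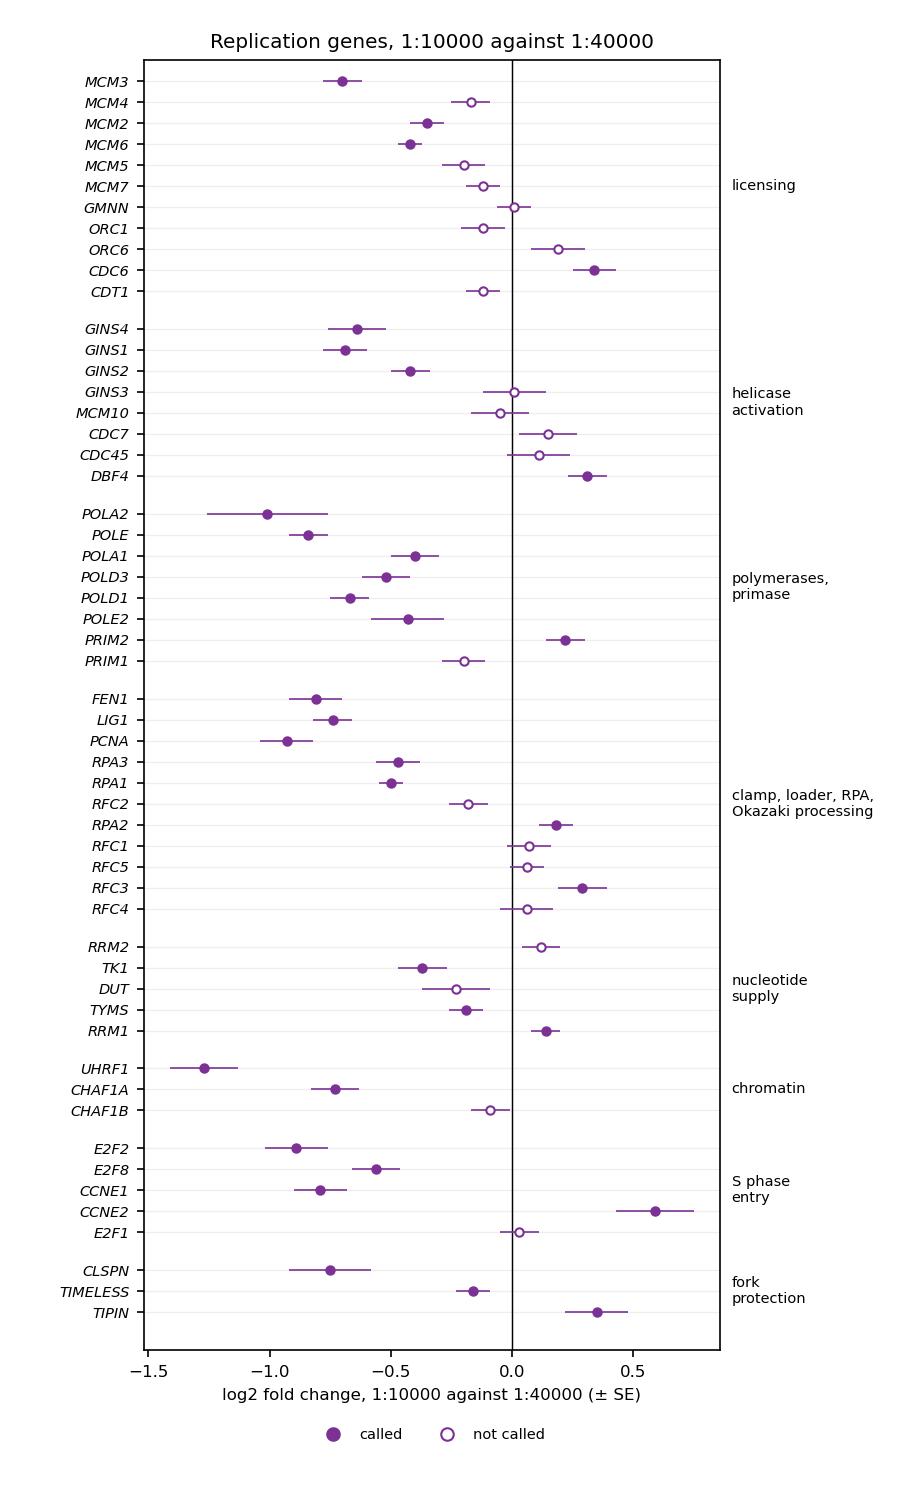
Log2 fold change at 1:10000 against 1:40000 (horizontal axis) ± SE for the 54 genes by role; filled points were called and open points were not. All 6 polymerase subunits lie left of 0 and UHRF1 farthest left at -1.27, while CCNE2 lies farthest right at 0.59.

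Lists of other genes of the pathway moved less evenly. Of 13 other origin and initiation genes, 7 were higher and 5 lower at 1:10000 against control, from MCMBP, which unloads MCM rings, at 0.75 ± 0.06, adjusted p = 1.38e-10 to MCM8 at -0.98 ± 0.14, adjusted p = 1.02e-06. Of 13 other polymerase and fragment-processing genes 12 were tested, with 3 higher and 3 lower, the lowest being ATAD5, which unloads PCNA (-1.50 ± 0.14, adjusted p = 7.76e-10). Nucleotide supply genes outside the 54 numbered 12, with 4 higher and 3 lower, from CTPS1, the CTP synthase (1.26 ± 0.08, adjusted p = 5.13e-13), to SAMHD1, which degrades deoxynucleotides (-1.0 ± 0.09, adjusted p = 3.3e-10). Of 7 other chromatin assembly genes 1 was higher and 3 lower, and the histone chaperones ASF1A (0.58 ± 0.09, adjusted p = 2.06e-06) and ASF1B (-0.92 ± 0.08, adjusted p = 9.38e-11) moved in opposite directions. The background for each of these counts is the 34.8% higher and 36.2% lower given above.

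Regulators of S phase entry and checkpoint genes were also mixed, whereas G2 and mitosis genes were more often lower than higher. The background is again 34.8% higher and 36.2% lower at 1:10000. Of 27 other S phase entry and pocket protein genes 10 were higher and 11 lower at 1:10000, with MYC, the growth regulator, the highest (1.76 ± 0.14, adjusted p = 7.08e-09, 54.2 CPM in controls and 183 at 1:10000). The lowest was CDKN1C, a CDK inhibitor, at 3.73 CPM in controls, 0.112 at 1:10000 and 0.0444 at 1:40000 (adjusted p = 1.34e-08 and 6.44e-11 against control), levels too low in the rinse aid libraries to give a fold change. Of 17 checkpoint and fork genes 5 were higher and 9 lower, from HUS1, a subunit of the checkpoint clamp (0.91 ± 0.11, adjusted p = 6.2e-08), to RAD17, its loader (-2.13 ± 0.22, adjusted p = 3.35e-08). RAD17 was as low at 1:40000 (-2.38 ± 0.21, adjusted p = 9.12e-09). Of 20 G2 and mitosis genes 2 were higher and 11 lower, from CDK1, the mitotic kinase (0.54 ± 0.11, adjusted p = 0.000172), to the proliferation marker MKI67 (-2.24 ± 0.07, adjusted p = 6.05e-19), which went from 351 CPM in controls to 196 at 1:40000 and 74.1 at 1:10000. Their median log2 fold change was -0.26, beside -0.51 for the 54 replication genes and -0.02 for all genes, and the difference between the lists was not tested.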

How the data were processed

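Each library had 1 deposited file of raw counts per Ensembl gene. GRCh38, featureCounts, cutadapt, STAR 2.7.9a and DESeq2 1.32.0 stand in the submitters' processing notes, which give no roles. Per the file headers, RNA STAR made the control files and HISAT2 the rinse aid files; the strand setting and annotation release are not given in the sources used here. Files were joined on 60557 shared identifiers, and coordinates, exon lengths and overlaps came from GENCODE 29.

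Counts were tested in R 4.3.3 with edgeR 4.0.16 (trimmed mean of M-values scaling, filterByExpr, robust quasi-likelihood fit of 3 group means over 15 libraries), with Benjamini-Hochberg adjustment over 13157 genes within each of 3 comparisons and a threshold of 0.05. The fit was also run on simulated counts with few changed genes. Far more genes were called in these data, so that run cannot check scaling or error rates here. SEs are approximate and were derived from the test's F statistic and the log2 fold change. Ratios used log2 of counts plus 0.5 and exact permutation tests over libraries, adjusted over 18 tests. Total counts per library, and so precision, were lowest in replicate 2 at 1:40000.

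Values in every library are given for members among those with, in each role, the highest mean or the highest or lowest fold change, and for others that the text sets against them (GMNN, LIG1, CCNE1), chosen with their values known. Of other lists at most the highest and lowest called gene is named. The members and lists were chosen with earlier results of these data known. Same-numbered libraries were not treated as pairs in the main fit. The correlation of their deviations from the group means ran from -0.05 to 0.281 (median 0.064), over 0.1 in 6 of 15 pairs. Libraries with different numbers had a median of -0.014, over 0.1 in 9 of 60 pairs, so a weak pairing is possible. Alternatives were other scalings, DESeq2 1.42.0, filters, single libraries left out, a replicate block and clean gene models. Those on mitochondrial genes and on sets of replicates were added after seeing the data. Values of single genes under the alternatives were followed for 34 of the 54 members only.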

Additional observations from a re-analysis of the deposited data

Results flagged for a closer look

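Of 162 groups of 5 libraries, 9 held a library far from the other 4 by Dixon's test, and chance gives about 1 in 20. At 1:10000, replicate 2 was low for CDC6 (62.5 CPM, the others 81.1 to 86.5), MCM4 (131, the others 149 to 155), MCM10 (23.6, the others 35.4 to 37.2) and CHAF1B (30.3, the others 35.5 to 36.3). GMNN was high in replicate 1 at 1:10000 (66.1, the others 57.6 to 58.9) and low in replicate 1 at 1:40000 (55.0, the others 60.0 to 61.5). MCM7 was low in replicate 2 at 1:40000 (161, the others 194 to 205). In controls, replicate 2 was low for RRM2 (287, the others 327 to 338) and CCNE2 (7.15, the others 11.1 to 11.8). Replicate 2 accounts for 7 of the 9.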

How the results depend on the processing

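With 1 library left out in turn, called replication genes numbered 39 to 43 at 1:10000 against control (42 with all), 26 to 34 at 1:40000 (34 with all) and 31 to 36 between the dilutions (34 with all). Of all genes, 68.6% to 72.4%, 47.4% to 52.8% and 53.6% to 57.6% were called in these fits, in the same order. With all libraries these shares were 71.0%, 52.1% and 57.3%. The replicate block gave 35 lower and 8 higher, 33 and 5, and 30 and 8 in these comparisons. Of all genes, 37.2%, 27.6% and 30.9% were called lower with the block. Of the 15 libraries 7 correlated best with their own number. With the block CDC6 was called higher at 1:10000 (0.17, adjusted p = 0.0307) and lower at 1:40000 (-0.18, adjusted p = 0.0269). Libraries of the same set (replicates 1 and 2, or 3 to 5) had a median correlation of deviations of 0.062, beside -0.063 between sets. Among the 23 genes with clean models, 18 were called at 1:10000 (15 lower, 3 higher), beside 72.4% of all genes with clean models. At 1:40000 11 of the 23 were called (10 and 1), beside 52.9%, and between the dilutions 11 (9 and 2), beside 61.4%. The part of the gene models in these shares was not tested. With no filter on low counts, 19 were lower at 1:40000 against control, beside 9.46% of all 30969 genes. Between the dilutions 3 were higher, beside 3210 of all genes. In these comparisons the median of all genes moved to 0.16 and -0.21, and that of the 54 stood at -0.14 and -0.26. Upper-quartile scaling gave 5 higher between the dilutions, and the cause was not tested.

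Without the deepest and shallowest 1:40000 library, 3 against 5 libraries allow no exact permutation p below 0.0357, and adjusted p values were 0.0584 for the log2 ratios CDT1 to GMNN (0.72), RRM2 to RRM1 (-0.47), POLD3 to POLD1 (-0.32) and CHAF1B to CHAF1A (0.21) at 1:40000 against control, and CCNE2 to CCNE1 (1.44) and CHAF1B to CHAF1A (0.74) between the dilutions. CDT1 to GMNN between the dilutions turned to 0.02. With a pseudocount of 5, POLE2 to POLE at 1:40000 was called (0.19, adjusted exact permutation p = 0.013). With 1 library left out, POLE2 to POLE ranged from 0.48 to 0.81 at 1:10000, from 0.14 to 0.25 at 1:40000 and from 0.29 to 0.62 between the dilutions, called without replicate 5 of 1:10000 in the first and last and without replicate 2 of 1:40000 in the second. RRM2 to RRM1 between the dilutions ranged from -0.08 to 0.03.

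Single genes whose log2 fold change was not called with all libraries changed sign under some settings, and no value of the changed sign was called. At 1:10000 against control these were RRM1 (0.06, replicates 1 and 2 alone), CCNE2 (-0.04, replicates 3 to 5 alone) and CHAF1B (0.00 without the deepest and shallowest library and with DESeq2 size factors, 0.01 in DESeq2). At 1:40000 they were POLA2 (0.08), PRIM2 (0.06) and TIMELESS (0.06) with replicates 1 and 2 alone, RFC3 (-0.09) and TIPIN (0.06) with replicates 3 to 5 alone, RFC3 (-0.01) and TIPIN (0.01) with the replicate block, PRIM2 (0.03), RPA1 (0.01), TIMELESS (0.06) and TIPIN (0.06) with no filter, PRIM2 (0.00), TIMELESS (0.03) and TIPIN (0.04) with upper-quartile scaling, and TIPIN (0.13 without the deepest and shallowest library, 0.00 with only the groups compared). Between the dilutions they were MCM7 (0.02) and E2F1 (-0.07) with replicates 1 and 2 alone, RFC4 (-0.01) and RRM2 (-0.05, beside 0.35 and adjusted p = 0.00896 with replicates 1 and 2 alone) with replicates 3 to 5 alone, RFC4 (-0.01) and E2F1 (-0.04) with no filter, and E2F1 (-0.02 with upper-quartile scaling, -0.01 without the deepest and shallowest library). With 1 library left out, CHAF1B ranged from -0.07 to 0.04 and CCNE2 from -0.08 to 0.13 at 1:10000, RFC3 from -0.10 to 0.06, TIMELESS from -0.04 to 0.01 and TIPIN from -0.10 to 0.11 at 1:40000, and RFC4 from 0.00 to 0.13 and E2F1 from -0.02 to 0.10 between the dilutions.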
